A study of Mus musculus with 14 samples.

Results

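The transcripts of 9 mouse genes of type 2 immunity and of eosinophils were followed in lung after carbon fibre exposure: the alarmin Il33, the receptors Il1rl1 and Il4ra, the macrophage products Chil4, Retnla, Arg1 and Mgl2, and the eosinophil genes Ccr3 and Prg2. Members were taken as the genes to which the RefSeq accession of an array probe maps, which gave 14 probes for the 9 genes, among 30567 genes tested in all. All 9 genes had at least 1 probe that passed the filter on dim probes (a signal well above background in 3 or more of the 14 arrays), and 12 of the 14 probes did. For a gene with several probes the brightest was used.

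The 14 arrays measured lung RNA from male C57BL/6N mice, 1 month after a single agent was given into the trachea. The groups were carbon fibre before recycling (VCF, 3 arrays), carbon fibre after carbonization (CCF, 3 arrays), carbon fibre after firing (RCF, 3 arrays), each at 200 µg per mouse, and PBS vehicle (Control, 5 arrays). The series text calls the hybridized samples independent biological samples, and the sources used here do not give the age of the mice. Each value below is a log2 intensity minus the 75th percentile of its array, so that 0 stands for the 75th percentile of that array. Levels of different probes are not on a common scale and are not set against each other.

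In type 2 immunity, damaged epithelial and stromal cells release IL-33, which acts through ST2, the product of Il1rl1, on innate lymphoid cells, mast cells and T helper cells. These cells make IL-4, IL-5 and IL-13. IL-4 and IL-13 share the receptor chain encoded by Il4ra and act through STAT6 on macrophages, which in the mouse then express arginase 1 (Arg1), the resistin-like protein RELMα (Retnla), the chitinase-like proteins Ym1 (Chil3) and Ym2 (Chil4) and the lectin CD301b (Mgl2). IL-5 and the eotaxins, the ligands of CCR3 (Ccr3), bring in eosinophils, whose granules hold major basic protein (Prg2) and eosinophil peroxidase (Epx).

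Of the 9 genes, Chil4 rose for the mean of the 3 fibres, and Ccr3 fell after CCF. Chil4 was higher on all 9 fibre arrays than on any of the 5 Control arrays, by 0.66 ± 0.14 log2 units on average (SE, 1.58-fold). Ccr3 was lower on all 3 CCF arrays than on any Control array, by 1.30 ± 0.25 log2 units (SE, 2.47-fold lower). The other 7 genes did not pass the threshold in any of the 7 comparisons made with limma (adjusted p under 0.05, Benjamini-Hochberg over all genes). As counts, 0 of 9 members were called after VCF, 1 after CCF (lower), 0 after RCF and 1 for the mean of the 3 fibres (higher). Over all genes the called share was 0.0851% for VCF, 5.99% for CCF, 0.154% for RCF and 2.58% for the mean of the 3 fibres. In the called direction alone it was 2.21% lower for CCF and 2.01% higher for the mean of the 3 fibres. The counts at an unadjusted p under 0.05 were 1, 3, 1 and 3 of 9 in the same order of comparisons, against 9.96%, 23.7%, 12.9% and 19.5% of all genes. Without overlap between the groups, 1 member was higher after VCF (Chil4), 1 higher (Chil4) and 1 lower (Ccr3) after CCF, and 1 higher after RCF (Chil4), where 3.46% of all genes were higher without overlap after VCF, 9.89% after CCF and 7.62% after RCF. After CCF, 6.46% of all genes were lower without overlap. The median log2 difference of the members was −0.15 for VCF, 0.15 for CCF, −0.10 for RCF and −0.08 for the mean of the 3 fibres, against 0.00, 0.00, 0.06 and 0.01 over all genes.

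**Figure D1:**
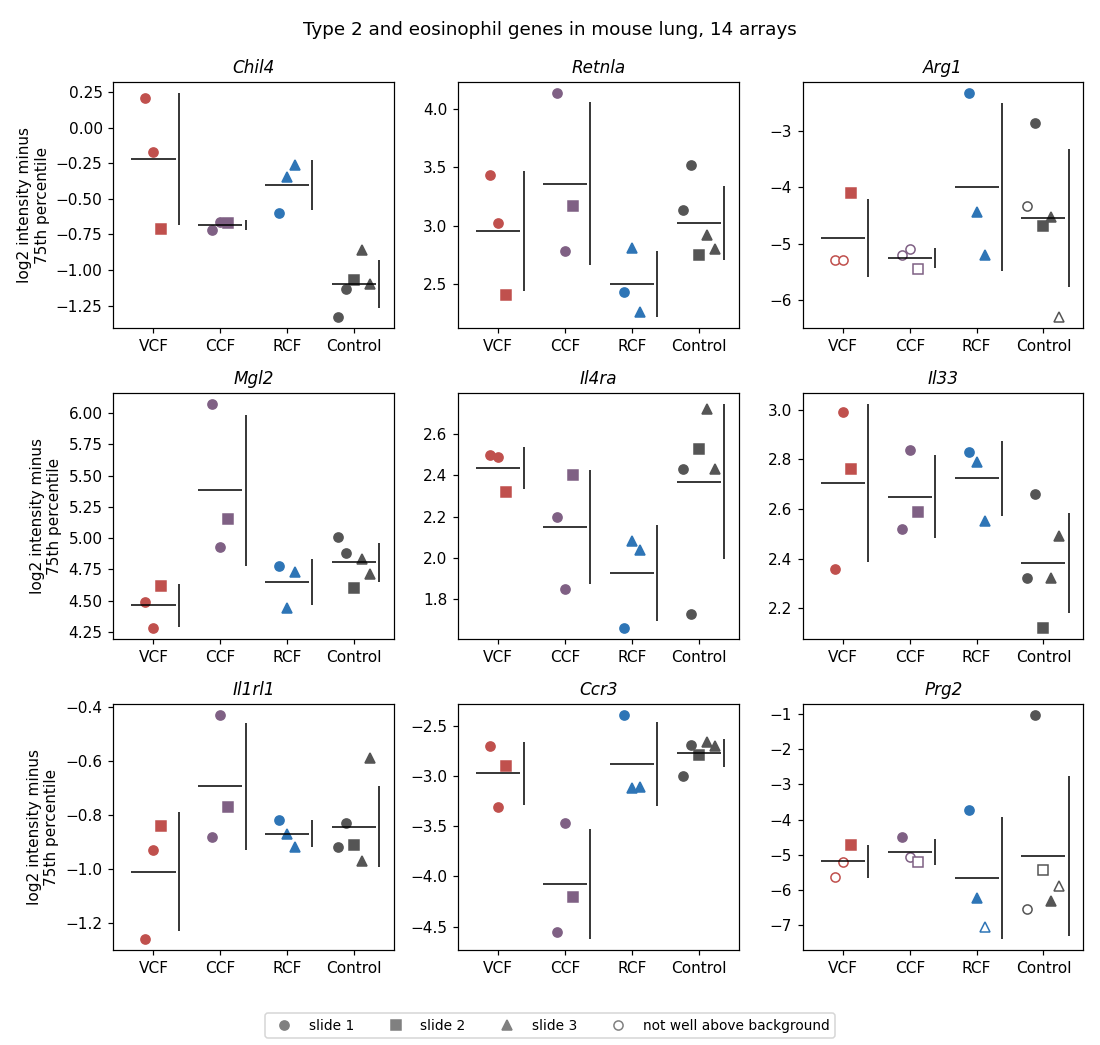
Log2 intensity minus the array's 75th percentile (y axis of each panel, own range) for the 9 genes in the 3 VCF, 3 CCF, 3 RCF and 5 Control arrays; 1 point per array, marker shape by slide, open where the probe was not well above background, horizontal line the group mean, vertical line 1 SD to each side. Chil4 separates all fibre arrays from Control, Ccr3 separates CCF from Control, and in the remaining panels each fibre group overlaps with Control.

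The promoters of the called members are shown first, because Chil4 has a neighbour, Chil3, of nearly the same sequence. Each window runs from 250 bases before to 50 bases after the annotated gene start, 5′ to 3′ on the gene's strand, from RefSeq with build GRCm38.p6. Capitals mark matches, on either strand, to 2 STAT motifs (the STAT6 spacing, TTC and GAA with 4 bases of any kind between them, and TTCNNNGAA), to the GATA motif AGATAA and to the TATA motif TATAAA. Chil4 lies at chr3:106219430-106219729 (minus strand), Chil3 at chr3:106167515-106167814 (minus strand) and Ccr3 at chr9:124021721-124022020 (plus strand).
Chil4: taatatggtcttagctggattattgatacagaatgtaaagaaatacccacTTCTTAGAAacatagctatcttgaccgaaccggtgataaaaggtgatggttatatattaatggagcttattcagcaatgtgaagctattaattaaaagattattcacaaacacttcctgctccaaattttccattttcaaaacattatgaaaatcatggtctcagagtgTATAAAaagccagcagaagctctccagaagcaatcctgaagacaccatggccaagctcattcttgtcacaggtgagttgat
Chil3: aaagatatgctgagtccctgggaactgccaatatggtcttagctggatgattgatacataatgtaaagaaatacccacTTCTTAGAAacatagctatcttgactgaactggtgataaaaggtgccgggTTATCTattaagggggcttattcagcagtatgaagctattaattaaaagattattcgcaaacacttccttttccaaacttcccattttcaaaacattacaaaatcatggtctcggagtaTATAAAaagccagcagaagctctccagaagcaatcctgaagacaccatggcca
Ccr3: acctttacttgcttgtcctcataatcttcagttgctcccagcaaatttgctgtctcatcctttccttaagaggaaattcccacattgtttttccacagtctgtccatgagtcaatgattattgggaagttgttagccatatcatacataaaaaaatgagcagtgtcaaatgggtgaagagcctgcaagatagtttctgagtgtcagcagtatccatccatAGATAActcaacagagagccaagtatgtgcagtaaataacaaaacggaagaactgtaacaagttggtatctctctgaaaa
Aligned with free ends, the Chil4 and Chil3 windows were identical in 251 of 273 columns (91.9%). Both hold 1 match to TTCNNNGAA and 1 to TATAAA, the TATAAA match starting at −31 from the annotated start of Chil4 and at −3 from that of Chil3. AGATAA is found at −30 in the Ccr3 window and at −122 in that of Chil3, and not in that of Chil4. The shares of 32851 mouse promoter windows with a match were 6.95% for the STAT6 motif, 8.3% for TTCNNNGAA, 11.2% for AGATAA and 13.6% for TATAAA. Windows were found for 7 of the 9 members. The STAT6 motif has a match in the windows of Retnla (at −145) and Il33 (at −36, the first of its 2 windows). AGATAA also has a match in the 2 windows of Il1rl1 (at −217 and at −103), a member that was not called.

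Among the macrophage products, Chil4 had log2 values of 0.21, −0.17 and −0.71 in VCF lungs, −0.72, −0.66 and −0.67 in CCF lungs and −0.60, −0.35 and −0.26 in RCF lungs, against −1.33, −1.13, −1.07, −0.86 and −1.10 in Control lungs. The lowest fibre value lay above the highest Control value, a separation that 1.08% of all genes showed in the same direction. The mean level ran from VCF (−0.23 ± 0.46, SD, n = 3) over RCF (−0.40 ± 0.17, n = 3) and CCF (−0.69 ± 0.03, n = 3) to Control (−1.10 ± 0.17, n = 5). VCF overlapped with RCF and with CCF, while the 3 RCF values lay above the 3 CCF values (difference 0.28, 95% interval −0.17 to 0.74), a separation that 8.82% of all genes showed. Limma gave an adjusted p of 0.0381 for the mean of the 3 fibres. Fibre by fibre the difference from Control was 0.87 ± 0.19 for VCF (1.83-fold, adjusted p = 0.117), 0.41 ± 0.19 for CCF (1.33-fold, adjusted p = 0.201) and 0.70 ± 0.19 for RCF (1.62-fold, adjusted p = 0.147), none of which passed the threshold. Within slide 1 the differences were 1.25 for VCF, 0.54 for CCF and 0.64 for RCF, within slide 2 they were 0.36 for VCF and 0.40 for CCF, and within slide 3 the difference was 0.68 for RCF. That these 6 differences are all positive follows from the separation of fibre and Control arrays given above, and adds no further support to it.

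The size of the Chil4 difference moved little and its call moved readily. With 1 array left out at a time it stayed between 0.59 and 0.74, while the adjusted p ran from 0.0235 to 0.102 and was past the threshold only without VCF 1 and without VCF 3. The call was also lost with quantile scaling (0.65, adjusted p = 0.0523), without the filter on dim probes (0.66, adjusted p = 0.116) and without the 3 arrays of lowest signal, VCF 1, CCF 2 and RCF 1 (0.62, adjusted p = 0.0701). VCF 1, the array of highest Chil4, is the dimmest of the 14 by its 75th percentile (277, against 890.8 to 2953 on the 11 arrays other than these 3). Markers of alveolar macrophages, cells that make Ym1 in the mouse lung, moved with the fibres in part: the median over the 8 marker genes, relative to the Control mean, ran from −0.19 to −0.01 on VCF arrays, from 0.10 to 0.35 on CCF arrays and from 0.16 to 0.34 on RCF arrays, against −0.13 to 0.11 on Control arrays. Their part in the Chil4 result was not tested. In whole lung, more cells of a type and more RNA per cell cannot be told apart.

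Chil3, the paralog, had log2 values of 7.48, 6.61 and 6.39 in VCF lungs, 6.24, 6.70 and 6.33 in CCF lungs and 6.36, 6.19 and 6.44 in RCF lungs, against 6.04, 6.29, 6.26, 5.96 and 6.12 in Control lungs. All VCF values lay above the Control range, and 4 of the 6 CCF and RCF values did. The difference was 0.69 ± 0.22 for VCF (adjusted p = 0.288) and 0.39 ± 0.17 for the mean of the 3 fibres (adjusted p = 0.22), neither past the threshold. With normexp background correction and quantile scaling both passed it (0.83, adjusted p = 0.0415, for VCF and 0.61, adjusted p = 0.0203, for the mean of the 3 fibres), and with quantile scaling alone the mean of the 3 fibres did (0.60, adjusted p = 0.0336). Without the 3 dimmest arrays the differences were 0.36 and 0.23. The signals of such near-identical copies may include RNA of the other gene, so that the Chil4 value is uncertain in that respect.

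**Figure D2:**
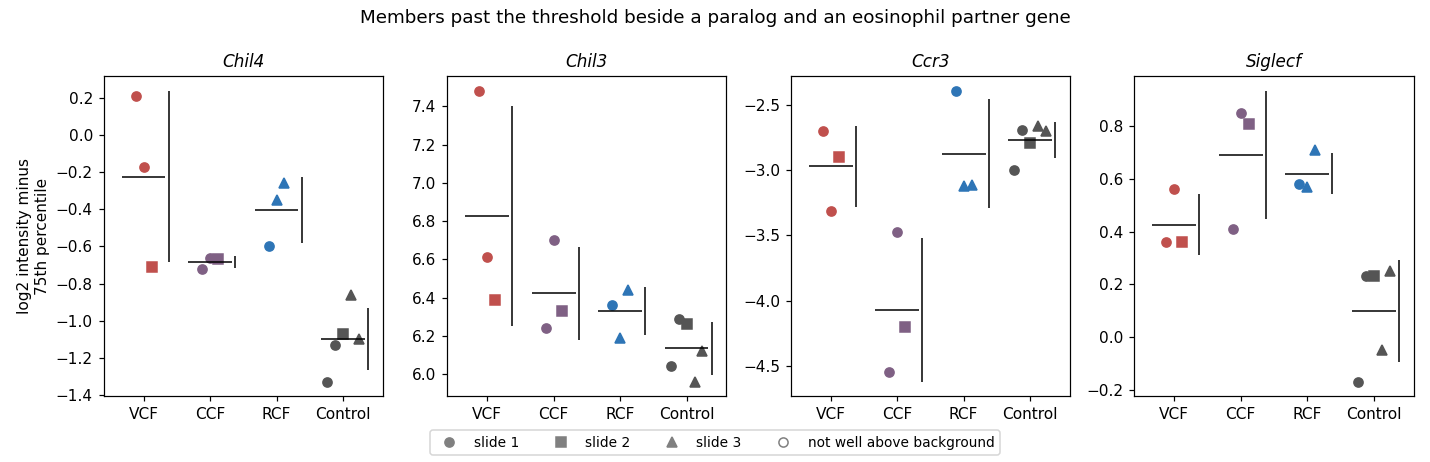
Log2 intensity minus the array's 75th percentile (y axis, own range per panel) of Chil4, its paralog Chil3, Ccr3 and the eosinophil and alveolar macrophage lectin gene Siglecf in VCF, CCF, RCF and Control arrays; marker shape by slide, horizontal line the group mean, vertical line 1 SD to each side. Chil4 and, on its brighter probe, Siglecf are above every Control array on all 9 fibre arrays, and Ccr3 is below every Control array on the 3 CCF arrays.

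Retnla had log2 values of 3.43, 3.02 and 2.41 in VCF lungs, 4.13, 2.78 and 3.17 in CCF lungs and 2.43, 2.81 and 2.26 in RCF lungs, against 3.13, 3.52, 2.75, 2.92 and 2.80 in Control lungs. The groups overlapped, with the highest value in CCF 1 and the lowest in RCF 3. The differences from Control were −0.07 ± 0.32 for VCF, 0.34 ± 0.32 for CCF and −0.52 ± 0.32 for RCF (adjusted p from 0.542 to 0.981). Without CCF 1 the CCF difference was −0.05. Retnlg, a paralog known as a neutrophil transcript, fell after CCF by 1.69 ± 0.31 log2 units (adjusted p = 0.0144).

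Mgl2 had log2 values of 4.49, 4.28 and 4.62 in VCF lungs, 6.07, 4.93 and 5.15 in CCF lungs and 4.78, 4.44 and 4.73 in RCF lungs, against 5.01, 4.88, 4.60, 4.83 and 4.71 in Control lungs. CCF 1 stood above all other arrays, and CCF 2 lay within the Control range. The CCF difference was 0.58 ± 0.22 (1.49-fold, adjusted p = 0.143), and 0.23 without CCF 1. A second Mgl2 probe, also well above background on all 14 arrays, gave a CCF difference of −0.35 ± 0.30, the opposite sign, so that the probes of this gene disagree. The brighter probe is spotted 10 times on each array and the second once. Clec10a, the related lectin gene, was at −0.18 ± 0.22 after CCF (adjusted p = 0.696).

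Arg1 was near background. It was well above background on 1 of 3 VCF, 0 of 3 CCF and 3 of 3 RCF arrays, against 3 of 5 Control arrays. Its log2 values were −5.30, −5.30 and −4.10 in VCF lungs, −5.21, −5.10 and −5.45 in CCF lungs and −2.33, −4.44 and −5.21 in RCF lungs, against −4.33, −2.86, −4.69, −4.52 and −6.31 in Control lungs. The highest values were those of RCF 1 and Control 2. The CCF values lay within the Control range, and with no CCF array above background no fold is given (adjusted p = 0.615). The RCF difference of 0.55 ± 0.73 was −0.29 without RCF 1.

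Of the genes upstream, Il33 had log2 values of 2.36, 2.99 and 2.76 in VCF lungs, 2.52, 2.84 and 2.59 in CCF lungs and 2.83, 2.79 and 2.55 in RCF lungs, against 2.32, 2.66, 2.12, 2.32 and 2.49 in Control lungs. On 8 of 9 fibre arrays it lay above the Control mean, and 4 of the 9 (VCF 1, CCF 1, CCF 3 and RCF 3) lay within the Control range. The difference was 0.31 ± 0.13 for the mean of the 3 fibres (1.24-fold, adjusted p = 0.207), with 0.32 ± 0.17 for VCF, 0.27 ± 0.17 for CCF and 0.34 ± 0.17 for RCF. Within the slides it was between 0.18 and 0.64 in each of 6 comparisons. A dimmer Il33 probe, above background on 10 of 14 arrays, gave −0.22 ± 0.41 for the mean of the 3 fibres.

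Il1rl1, the IL-33 receptor, had log2 values of −1.26, −0.93 and −0.84 in VCF lungs, −0.88, −0.43 and −0.77 in CCF lungs and −0.82, −0.87 and −0.92 in RCF lungs, against −0.92, −0.83, −0.91, −0.97 and −0.59 in Control lungs. The differences from Control, −0.17 ± 0.14, 0.15 ± 0.14 and −0.03 ± 0.14 for VCF, CCF and RCF, did not pass the threshold, and the 95% interval for the mean of the 3 fibres was −0.26 to 0.22. The other Il1rl1 probes were above background on 2 and 0 of 14 arrays and were not tested. Il1rap, the co-receptor chain, was higher than the Control mean on 9 of 9 fibre arrays (0.39 ± 0.13, adjusted p = 0.119). Its value in VCF 1 (−0.43) lay within the Control range (−0.65 to −0.36).

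Il4ra had log2 values of 2.50, 2.49 and 2.32 in VCF lungs, 2.20, 1.85 and 2.40 in CCF lungs and 1.66, 2.08 and 2.04 in RCF lungs, against 2.43, 1.73, 2.53, 2.72 and 2.43 in Control lungs. The RCF values were below all Control values other than Control 2 (−0.44 ± 0.21, adjusted p = 0.417). On a second Il4ra probe the RCF difference was 0.32 ± 0.55. Stat6, which acts below this receptor, differed from Control by 0.10 ± 0.10 for the mean of the 3 fibres (adjusted p = 0.663). Of the cytokines, Il5 was above background on 0 of 14 arrays, Il4 on 9 and Il13 on 5, and neither Il4 nor Il13 passed the threshold. Il4 was above background on 1 of 3 VCF arrays, against 3 of 5 Control arrays.

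**Figure D3:**
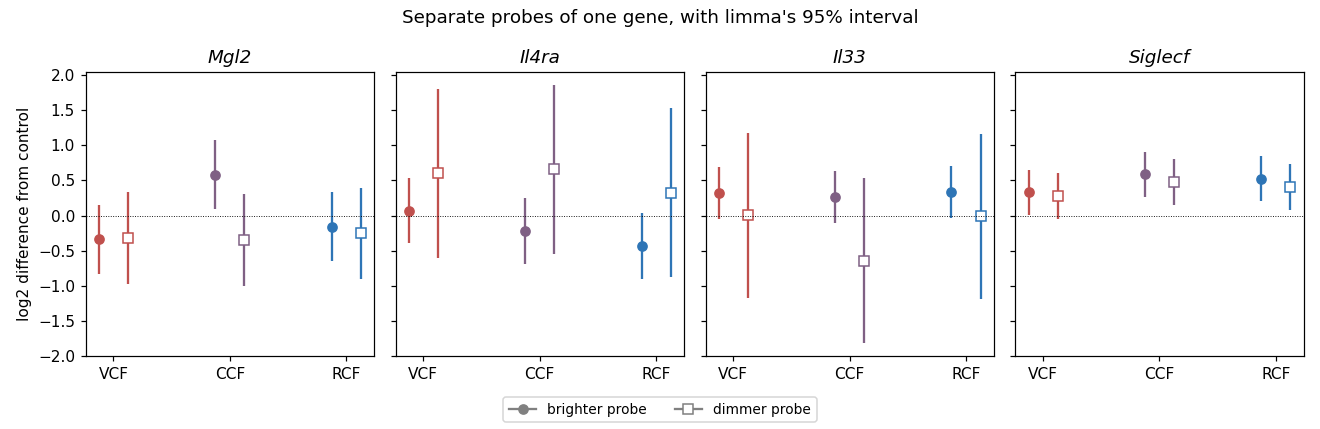
Log2 difference from Control (y axis) with limma's 95% interval for VCF, CCF and RCF, for the brighter probe (filled circle) and the dimmer probe (open square) of Mgl2, Il4ra, Il33 and Siglecf. The Siglecf probes lie close together, while after CCF the probes of Mgl2, Il4ra and Il33 have opposite signs.

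Of the eosinophil genes, Ccr3 had log2 values of −2.70, −3.31 and −2.90 in VCF lungs, −4.55, −3.47 and −4.20 in CCF lungs and −2.39, −3.12 and −3.11 in RCF lungs, against −3.00, −2.69, −2.79, −2.66 and −2.70 in Control lungs. All CCF values lay below all values of the other groups, and VCF and RCF overlapped with Control. A separation of CCF below Control was shown by 6.46% of all genes. The mean level was lowest in CCF (−4.07 ± 0.55, SD, n = 3), followed by VCF (−2.97 ± 0.31, n = 3), RCF (−2.87 ± 0.42, n = 3) and Control (−2.77 ± 0.14, n = 5), of which the last 3 do not differ beyond their spread. The CCF difference of −1.30 ± 0.25 had an adjusted p of 0.0173 (limma). For VCF it was −0.20 ± 0.25 and for RCF −0.10 ± 0.25, with adjusted p of 0.894 and 0.932. Within slide 1 the CCF difference was −1.16, and within slide 2 it was −1.41. The RCF difference was 0.46 within slide 1 and −0.43 within slide 3.

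The call for Ccr3 was lost without CCF 1 (−1.07, adjusted p = 0.0632) and without CCF 3 (−1.24, adjusted p = 0.0569), and held when any 1 of the other 12 arrays was left out. With normexp background correction and quantile scaling the difference shrank to −0.56 and stayed past the threshold (adjusted p = 0.0399). Ccr3 was well above background on all 14 arrays, and its lowest value, in CCF 1, lay above the lowest signal so marked on that array (−5.19). Over the 3 fibres together the difference was −0.53 ± 0.19 (adjusted p = 0.148).

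Markers of other blood cells did not all move in the same direction after CCF, where Ccr3 fell. The median over 9 neutrophil genes, relative to the Control mean, ran from −1.34 to −0.66 on CCF arrays, against −0.27 to 0.18 on Control arrays. After CCF, 4 of the 9 fell (S100a8, S100a9, Retnlg and Cxcr2), where 2.21% of all genes were called lower. On VCF arrays the same median ran from 0.64 to 1.43, and on RCF arrays from −0.73 to 0.30. Mast cells and basophils can also carry CCR3. The median over 9 genes of these cells ran from −0.93 to 0.03 on VCF arrays and from −0.58 to −0.20 on CCF arrays. It ran from −0.50 to −0.06 on RCF arrays, against −0.07 to 0.30 on Control arrays. After each fibre 0 of 9 were called, where 0.0851% (VCF), 5.99% (CCF) and 0.154% (RCF) of all genes were. At an unadjusted p under 0.05, 2 of the 9 were lower after CCF and 0 higher, where 23.7% of all genes passed. They were Mcpt8 (−1.75 ± 0.55, limma adjusted p = 0.0806) and Fcer1a (−0.95 ± 0.41, adjusted p = 0.188). The median over 4 monocyte genes ran from 0.14 to 0.36 on CCF arrays, against −0.10 to 0.17 on Control arrays. For 2 erythroid genes it ran from 0.53 to 1.23, against −1.27 to 1.22. For 3 T cell genes it ran from −0.32 to 0.42, against −0.63 to 0.40. The part of any of these cells in the Ccr3 result was not tested.

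Prg2 was well above background on 6 of 14 arrays. Its log2 values were −5.63, −5.21 and −4.71 in VCF lungs, −4.49, −5.07 and −5.19 in CCF lungs and −3.73, −6.21 and −7.04 in RCF lungs, against −6.53, −1.05, −5.43, −6.31 and −5.87 in Control lungs. Control 2 stood far above the other arrays. For the mean of the 3 fibres the difference was −0.22 ± 0.85, and 0.78 without Control 2, neither past the threshold. Arg1 and Prg2 both had their highest values in RCF 1 and Control 2, which are on the same slide.

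The defining granule genes of eosinophils were barely measured in these lungs. Epx was well above background on 0 of 14 arrays, and Prg3, the second major basic protein gene, on at most 2. Il5ra, the IL-5 receptor of eosinophils and B-1 cells, was measured on all 14 arrays and differed from Control by −0.43 ± 0.30 after CCF (adjusted p = 0.424). The eotaxin Ccl11, a ligand of CCR3, differed by 0.02 ± 0.44 after CCF, and Ccl24, another, by −0.84 ± 0.39 (adjusted p = 0.222). Ccl24 was above the Control mean on 0 of 9 fibre arrays (−0.70 ± 0.30 for the mean of the 3 fibres, adjusted p = 0.223), and the groups overlapped. Siglecf, carried in the lung by eosinophils and by alveolar macrophages, had log2 values of 0.36, 0.56 and 0.36 in VCF lungs, 0.41, 0.85 and 0.81 in CCF lungs and 0.58, 0.57 and 0.71 in RCF lungs, against −0.17, 0.23, 0.23, −0.05 and 0.25 in Control lungs. It rose for the mean of the 3 fibres (0.48 ± 0.11, 1.4-fold, adjusted p = 0.0465) and after CCF (0.59 ± 0.15, 1.51-fold, adjusted p = 0.0368). With 1 array left out, these calls held in 3 and in 7 of 14 fits. Among 12 other settings the call for the mean of the 3 fibres was lost in 6 and that for CCF in 5, with adjusted p of 0.141 and 0.111 without the filter on dim probes and of 0.114 and 0.158 without the 3 dimmest arrays. A second Siglecf probe gave 0.39 ± 0.12 for the mean of the 3 fibres and 0.48 ± 0.15 for CCF (adjusted p = 0.0905 and 0.0786). On that probe VCF 1 (−1.28) and VCF 3 (−1.23) lay within the Control range (−1.61 to −1.17).

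**Figure D4:**
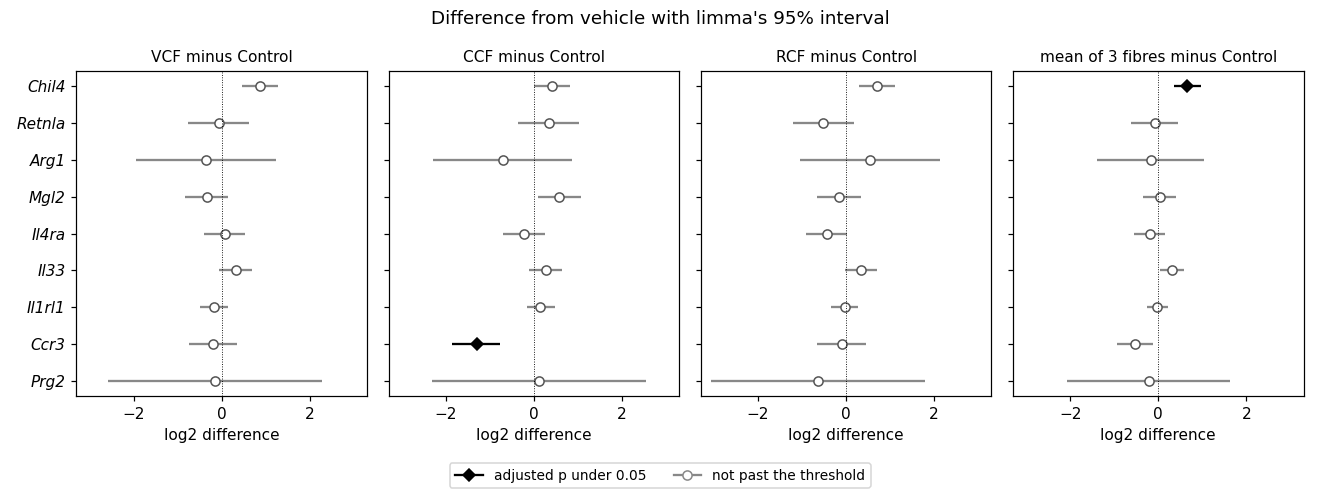
Log2 difference (x axis) of VCF, CCF, RCF and the mean of the 3 fibres from Control for the 9 genes, with limma's 95% interval; filled diamonds have an adjusted p under 0.05. Chil4 for the mean of the 3 fibres (0.66) and Ccr3 after CCF (−1.30) are past the threshold, and the intervals of Arg1 and Prg2 are the widest.

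Between the fibres, limma called 0 of 9 members in each of the 3 comparisons, where 0.222% of all genes were called for CCF against VCF, 0.00982% for RCF against VCF and 0.00327% for RCF against CCF. At an unadjusted p under 0.05 the members numbered 3, 0 and 3, against 13.8%, 9.05% and 9.26% of all genes. Ccr3 averaged −4.07 in CCF lungs and −2.97 in VCF lungs (difference −1.11, 95% interval −1.72 to −0.50, adjusted p = 0.123). It averaged −2.87 in RCF lungs and −4.07 in CCF lungs (difference 1.20, 95% interval 0.59 to 1.81, adjusted p = 0.402). Mgl2 differed by 0.92 between CCF and VCF (95% interval 0.37 to 1.47, adjusted p = 0.147) on its brighter probe and by −0.03 on the other. Retnla differed by −0.86 between RCF and CCF (95% interval −1.63 to −0.09, adjusted p = 0.506). Groups did not overlap for Ccr3 (lower in CCF than in VCF, as for 8.34% of all genes), for Mgl2 (higher in CCF than in VCF, as for 10.7%, and lower in RCF than in CCF, as for 7.13%) and for Il4ra (lower in RCF than in VCF, as for 5% of all genes, difference −0.51, adjusted p = 0.563). Ccr3 was higher in RCF than in CCF without overlap, on the side of the 8.82% given above. Chil4 differed by −0.46 between CCF and VCF (95% interval −0.91 to −0.01, adjusted p = 0.356).

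The wider pathway was described from 6 lists: type 2 cytokines with their receptors and signal transduction, alternatively activated macrophages, eosinophils, ILC2 and Th2 cells, the epithelial type 2 response, and the opposing type 1 response. Of their 80 genes other than the members, 72 were tested. Siglecf was the gene called after CCF and for the mean of the 3 fibres (1 higher and 0 lower of 72 in each, where 5.99% and 2.58% of all genes were called), and 0 were called after VCF or RCF. At an unadjusted p under 0.05 the genes numbered 7 of 72 after VCF, 11 after CCF, 10 after RCF and 9 for the mean of the 3 fibres, beside the 9.96%, 23.7%, 12.9% and 19.5% of all genes. Between fibres, Adgre4, an adhesion receptor gene of myeloid cells, was higher in RCF than in VCF lungs (means −1.26 and −2.66, difference 1.40 ± 0.17, 2.63-fold, adjusted p = 0.0401), a call kept in 4 of 14 fits with 1 array left out. It was lost in 6 of 11 other settings, among them normexp with quantile scaling (1.07, adjusted p = 0.0635) and slide as a fixed block (1.34, adjusted p = 0.085). The median over 4 monocyte genes, relative to the Control mean, ran from 0.10 to 0.28 on RCF arrays and from −0.27 to −0.16 on VCF arrays, and its part in the Adgre4 difference was not tested. The other comparisons between fibres called 0 of 72. Clca1, a goblet cell gene of the epithelial response, had a mean of 0.95 in CCF lungs and −1.96 in Control lungs, and its difference of 2.91 ± 1.00 did not pass the threshold (adjusted p = 0.103). Median differences of the lists after CCF were 0.07 for cytokines and receptors, 0.11 for macrophages, 0.18 for eosinophils, 0.23 for ILC2 and Th2 cells, 0.42 for the epithelial response and 0.07 for the type 1 response, against 0.00 over all genes. After RCF they were 0.13, 0.03, 0.24, −0.02, 0.01 and 0.08 in the same order, against 0.06 over all genes, and after VCF −0.19, −0.03, 0.00, −0.11, 0.18 and −0.23, against 0.00. For the epithelial list the median per array ran from 0.00 to 0.95 on CCF arrays, and overlapped with Control arrays (−0.32 to 0.73). The eosinophil list after RCF had 4 of 11 tested genes at an unadjusted p under 0.05, all higher, and 0 called. They were Siglecf, Ear1, Adgre4 and Cd9. Siglecf and Adgre4 are also genes of other myeloid cells, and Ear1 and Cd9 are not read here as particular to eosinophils either. The median of the list per array ran from 0.14 to 0.38 on RCF arrays, against −0.15 to 0.10 on Control arrays. After RCF, Il5ra differed from Control by 0.10 ± 0.30, Ccl11 by −0.18 ± 0.44 and Ccl24 by −0.33 ± 0.39. The members Ccr3 and Prg2 differed by −0.10 ± 0.25 and −0.63 ± 1.11. The medians of alveolar macrophage genes (0.16 to 0.34) and monocyte genes on RCF arrays were also above 0, and their part was not tested.

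**Figure D5:**
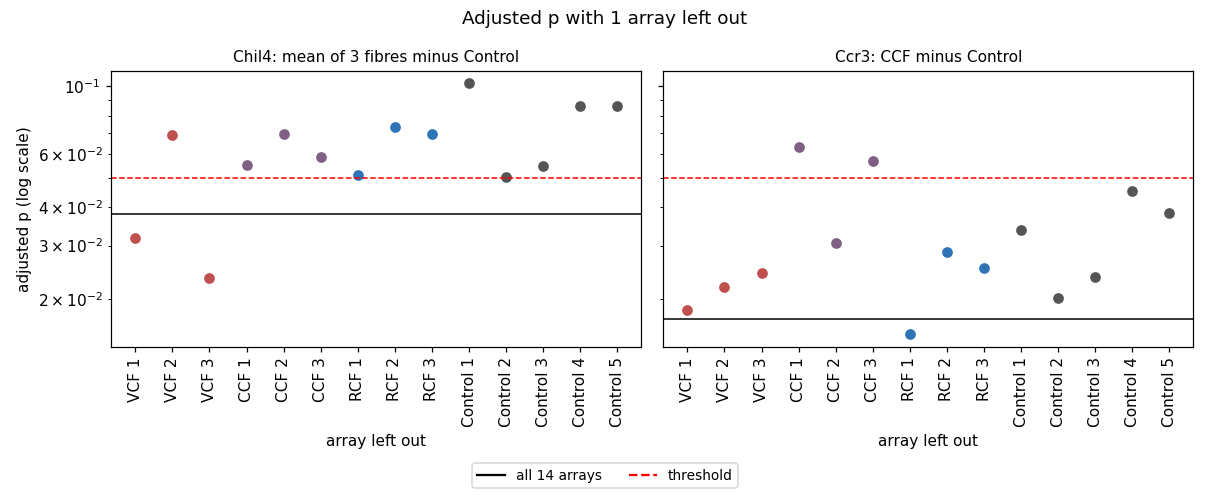
Adjusted p (y axis, log scale) of Chil4 for the mean of the 3 fibres minus Control and of Ccr3 for CCF minus Control when the array named on the x axis is left out; solid line, all 14 arrays; dashed line, the threshold of 0.05. Chil4 is under the threshold without VCF 1 or VCF 3 and above it otherwise, and Ccr3 is above it without CCF 1 or CCF 3.

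The genes whose values varied most like a member's were found over the 14 arrays with each group's mean removed, among 15758 genes with a symbol. For Chil4 they were Olfr1030 (Pearson r = 0.85), Stra8 (0.85) and Deup1 (0.84), and for Ccr3 they were Mxd3 (0.92), Dhx9 (0.90) and Cmtm6 (0.88). For Mgl2 the first was Klrg1 (0.91), for Il33 Tdrd5 (0.92), for Retnla Gjb1 (0.94), for Il4ra Rps26 (0.91), for Il1rl1 Tead3 (0.88), for Arg1 Tdo2 (0.94) and for Prg2 Nkpd1 (0.97). These are the highest of many, the arrays share 3 slides and differ in signal, and the values are a description of this set of arrays.

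Across the series, 47% to 70% of probes were well above background, and the lung epithelial genes Sftpc, Sftpb and Scgb1a1 were measured on all 14 arrays. The first slide carried the arrays numbered 1 and 2 other than RCF 2, the second those numbered 3 other than RCF 3, and the third RCF 2, RCF 3, Control 4 and Control 5. The third slide has another scan day than the first and the second, so that RCF against the other fibres is partly a comparison of slides.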

How the data were processed

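RNA of 14 lungs was hybridized to 14 one-colour Agilent arrays. Per the file headers, Feature Extraction 10.7.3.1 made the deposited intensity values; the processed signal is background-corrected and not scaled between arrays. The authors' deposited table holds log2 values of 32177 probes, 99.99% of them within 0.05 of log2 processed signal minus 1 constant per array; the sources used here do not give the origin of these constants. Its array medians were 0.30, −0.30 and −0.37 (VCF), −0.36, 0.16 and −0.34 (CCF), −0.17, −0.52 and −0.49 (RCF) and −0.05, −0.03, −0.29, −0.50 and −0.49 (Control).

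Log2 processed signal minus each array's 75th percentile (control spots left out) was averaged over the spots of a probe, outlier spots left out. No member spot was saturated. Probes well above background on at least 3 arrays were kept, genes were named by RefSeq accession, and the brightest probe of a gene was used. Limma 3.58.1 in R 4.3.3 was fitted to all 14 arrays and 4 groups without a block, as two-sided moderated tests with Benjamini-Hochberg adjustment per comparison and a threshold of 0.05. The number of arrays limits precision.

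The 9 members and all lists were chosen with earlier results of these data known. Named genes were the members, 15 partner genes, list genes past the threshold and the 3 genes most like each member. Clca1, Ear1, Cd9 and the marker genes S100a8, S100a9, Cxcr2, Mcpt8 and Fcer1a were named after their values were seen. Replicate numbers were not taken to pair arrays: residuals of same-numbered arrays correlated above 0.1 in 12 of 18 pairs (median r 0.181), others in 11 of 54 (median −0.0352). Promoters came from RefSeq. Alternatives were normexp with quantile scaling (on median signals), quantile scaling alone, 2 other filters, the mean of probes, other probes, the authors' table, slide blocks, a replicate block, array weights, and arrays left out.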

Additional observations from a re-analysis of the deposited data

Results flagged for a closer look

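In all, 4 values stood far from the others of their group by Dixon's criterion, which was applied to the 5 Control arrays of 35 probes and by chance picks about 1 group in 20. Prg2 in Control 2 was at −1.05, with the other Control arrays between −6.53 and −5.43. The second Il4ra probe in Control 2 was at −1.23, with the others between −3.83 and −3.29. A second probe of Il1rap, which was not used for that gene, was at −4.74 in Control 2, with the others between −3.73 and −3.52. A second probe of Il1rl1 was at −8.86 in Control 4, with the others between −6.63 and −5.84, and this probe was above background on 1 of the 5 Control arrays. Groups of 3 arrays were not examined in this way.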

How the results depend on the processing

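Member counts were 0 (VCF), 1 (CCF), 0 (RCF) and 1 (mean of the 3 fibres). They became 2 for CCF with normexp and quantile scaling (Ccr3 and Mgl2, 0.88, adjusted p = 0.0399). For the mean of the 3 fibres they became 0 with quantile scaling, without a filter on dim probes (Chil4 adjusted p = 0.116) and with a replicate block, which also left 0 for CCF (Chil4 0.74, adjusted p = 0.226; Ccr3 −1.25, adjusted p = 0.141). With array weights they became 1 for VCF (Chil4), 2 for RCF (Chil4 and Il4ra) and 3 for the mean of the 3 fibres (Chil4, Il33 and Ccr3). Without the 3 dimmest arrays the count for the mean of the 3 fibres stayed 1, now Ccr3 (−0.76, adjusted p = 0.0445). With 1 array left out the counts ran from 0 to 1 for VCF, CCF and the mean of the 3 fibres, and were 0 for RCF and between fibres. The cause of these changes was not tested.

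Signs turned for values that had not passed the threshold. Normexp gave Prg2 −0.29 (CCF) and Arg1 −0.04 (RCF), and quantile scaling Retnla 0.00 (VCF). The mean of probes gave Il4ra 0.22 and Il33 −0.19 (CCF) and Mgl2 −0.14 and Il4ra 0.16 (mean of the 3 fibres). Prg2 (CCF) was −0.72 with slide as a fixed and −0.38 as a random block. The replicate block gave Prg2 −0.58 (CCF), Arg1 −0.04 and Il1rl1 0.01 (RCF), and Mgl2 0.00 and Il1rl1 0.03 (mean of the 3 fibres). Array weights gave Il4ra −0.05 and Prg2 0.66 (VCF) and Retnla 0.01, Mgl2 −0.05, Il1rl1 0.03 and Prg2 0.35 (mean of the 3 fibres). Without the 3 dimmest arrays Prg2 was 0.08 (VCF) and Arg1 −0.29 (RCF). The other probes gave Il33 −0.65, −0.01 and −0.22 and Il4ra 0.66, 0.32 and 0.53 (CCF, RCF and the mean of the 3 fibres), and Mgl2 −0.35 (CCF), −0.31 (mean of the 3 fibres), −0.03 (CCF against VCF) and 0.10 (RCF against CCF).

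With 1 array left out, Retnla ran from −0.30 to 0.20 (VCF), −0.05 to 0.63 (CCF) and −0.21 to 0.04 (mean of the 3 fibres), Arg1 from −0.80 to 0.06 (VCF), −0.29 to 1.16 (RCF) and −0.62 to 0.25 (mean of the 3 fibres), and Prg2 from −0.52 to 0.85 (VCF), −0.25 to 1.12 (CCF), −1.59 to 0.37 (RCF) and −0.59 to 0.78 (mean of the 3 fibres). Il4ra ran from −0.09 to 0.16 (VCF), Il1rl1 from −0.06 to 0.03 (RCF) and −0.06 to 0.05 (mean of the 3 fibres), Ccr3 from −0.34 to 0.02 (RCF) and Mgl2 from −0.09 to 0.10 (mean of the 3 fibres).

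Counts over all genes moved widely over the 11 other settings: 0 to 717 for VCF (26 as reported), 2 to 4894 for CCF (1832), 0 to 3202 for RCF (47), 0 to 4675 for the mean of the 3 fibres (790), 0 to 655 for CCF against VCF (68), 0 to 1261 for RCF against VCF (3) and 0 to 445 for RCF against CCF (1). With 1 array left out they ran from 0 to 28, 258 to 2716, 0 to 55, 61 to 1035, 21 to 143, 0 to 26 and 0 to 25 in the same order. The highest counts came with array weights, except for CCF against VCF (slide as a random block), and the replicate block gave the lowest except for RCF against CCF. Signal over background limits Arg1, Prg2 and the cytokines.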
